A study of Homo sapiens and Mus musculus with 16 samples.

Results

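The genes described here are the translation initiation factors (symbols beginning with EIF1 to EIF6) and elongation factors (EEF1 and EEF2) in the mRNA table of SK-HEP-1 cells. They were taken by symbol, leaving out the Argonaute genes once named EIF2C and the eIF2alpha kinases EIF2AK, which gave 62 of the 22314 genes listed. SK-HEP-1 is a human liver cancer cell line. Cells received 0.5 mg/ml of an ethanol extract of Antrodia cinnamomea fruiting bodies (AcFBE, treated) or DMSO (untreated), and RNA was harvested after 2 or 4 h. Poly(A) RNA was sequenced on a SOLiD 3 instrument, 1 library for each condition: 2U (DMSO, 2 h), 2T (AcFBE, 2 h), 4U (DMSO, 4 h) and 4T (AcFBE, 4 h). The study asked what early changes in the transcriptome follow AcFBE, and the comparisons are 2T with 2U and 4T with 4U.

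Translation begins when initiation factors bring the initiator methionyl-tRNA (with eIF2) and the mRNA (with the cap-binding complex eIF4F) to the small ribosomal subunit, which is held ready by the large scaffold eIF3. After the start codon is found and the large subunit joins, elongation factors take over: eEF1A carries aminoacyl-tRNAs to the ribosome, the eEF1B subunits reload eEF1A with GTP, and eEF2 moves the ribosome along the mRNA. In liver cancer cells, as in other growing cells, these factors are abundant, and many of their mRNAs begin with a tract of pyrimidines, the 5′ TOP, through which the mTOR pathway controls their translation.

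Values are FPKM, the fragments of a transcript scaled to its length and to the mapped reads of the library. The paper's libraries followed a modified single-cell protocol, with the cDNA amplified by PCR before it was sonicated. Levels of the factors went down with transcript length (below), so levels of genes of unlike length are set side by side with that limit. There was no replicate, and no read counts came with the FPKM. A difference is therefore a ratio of 2 libraries without a test or an error. The paper gives the reads mapped in each library, but not those of each gene. Ratios were taken for genes above 0 in both libraries with a mean of at least 1 FPKM over the 4 libraries, which 49 of the 62 factors and 5445 of all genes had. A ratio of at least 2-fold was counted as past the fold, and the same count over all genes is given as background. In bulk RNA, fewer cells of a kind and less RNA per cell cannot be told apart. Of 10 hepatocyte markers, 8, among them ALB and HNF4A, were listed at 0 in all 4 libraries, as were 5 of 7 endothelial markers, while CAV1, of the endothelial list, ranged from 115 to 260 FPKM and ENG from 8.65 to 24.8 FPKM. Of 5 mesenchymal markers, COL1A2 was listed at 0 in all 4 libraries and COL1A1 in all but 4T, FN1 and TAGLN ranged from 4.92 to 14.5 FPKM, and VIM ranged from 6465 to 13625 FPKM. The liver label is thus not matched by most hepatocyte transcripts, although SERPINA1 was at 8.59 to 18.7 FPKM. Of 936 genes with a median of at least 50 FPKM, 21 were listed at 0 in 2U, 41 in 2T and 0 in 4U and 4T, so a 0 in a library of 2 h is not read as absence. Values above 0 but under 0.2 FPKM were listed for 2656 genes of 2U, 1173 of 2T and 0 of either library of 4 h. Low values were thus not listed alike at 2 and 4 h. Time and listing cannot be told apart in comparisons of 4 h with 2 h. The pair of 2 h was not listed alike either. Genes above 0 numbered 10691 (2U) against 8454 (2T) at the earlier time, and 9550 (4U) against 9773 (4T) at the later one. The gene numbers given by the paper equal the later pair, but they differ from the earlier one and place 2T above 2U. How this listing bears on the ratios of 2T with 2U was not tested. Each factor with a ratio was above 0.2 FPKM in every library where it was not listed at 0.

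At 2 h, 17 of 48 factors with a ratio were at least 2-fold higher in the treated library, 35.4%, against 22.6% of all 5211 genes with a ratio. At least 2-fold lower were 3 of them, 6.25%, against 18.7% of all genes. At 4 h, 16 of 49 factors were at least 2-fold higher, 32.7%, against 16.4% of all 5392 genes, and 2 were at least 2-fold lower, 4.08%, against 27.7%. With each library scaled to its median gene, 22 factors were higher at 4 h (44.9%, against 22.3% of all genes) and 0 were lower (against 18.2%). The median log2 ratio of the factors was 0.56 at 2 h and 0.54 at 4 h, whereas that of all genes was 0.03 and -0.35. Translation factors thus lay on the higher side of the treated libraries at both times. Of the 48, 22 (45.8%) stayed within 2-fold at both times, and the share of all genes that did so was not worked out.

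The same 2-fold limit was passed upward at both times by 11 of 48 factors, 22.9%, against 8.31% of all genes. They were the elongation factor EEF1A1 and its pseudogene EEF1A1P9, EEF1E1, the eIF2 subunits EIF2S1 and EIF2S2, EIF2A, EIF1AX, the eIF3 subunits EIF3E and EIF3M, the helicase EIF4A1 and the cap-binding protein EIF4E. Only EIF3F passed it downward at both times in the deposited values (2.08% of 48 factors, against 10.2% of all genes). None was at least 2-fold higher at one time and at least 2-fold lower at the other, a pattern that 3.39% of all genes had. Taken over the 4 libraries, 26 of 49 factors (53.1%) had both treated libraries above both untreated ones, against 23.7% of all 5445 genes. The reverse order was seen for 8 factors (16.3%, against 33.4% of all genes), which were EEF1D, EEF2, EIF1, EIF2B4, EIF2B5, EIF3F, EIF4EBP1 and EIF6. With each library scaled to its median gene, these numbers were 27 (55.1%, against 27.0% of all genes) and 5 (10.2%, against 29.7%), and EEF2, EIF1 and EIF6 left the lower group. These counts and the shares of all genes take a listed 0 as a low value. EEF1D is in the lower group with its 0 in 2T, which is not read as absence.

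**Figure D1:**
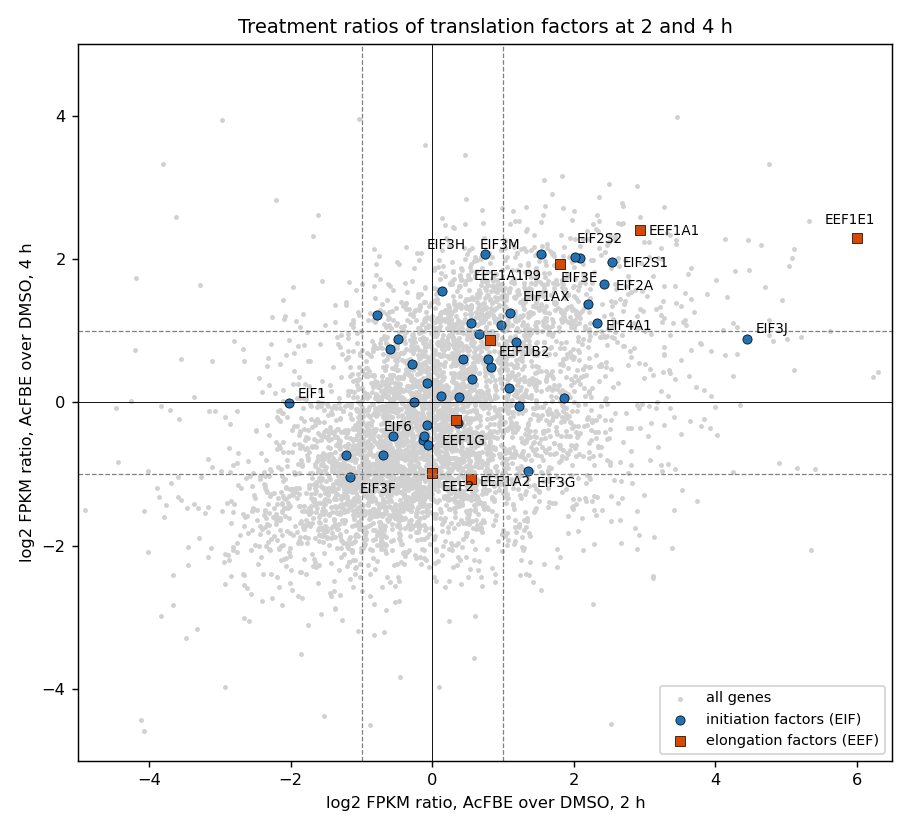
Log2 FPKM ratio of AcFBE over DMSO at 2 h (horizontal axis) and at 4 h (vertical axis), 1 point per gene with a ratio at both times: grey, all genes; blue circles, initiation factors; orange squares, elongation factors. Dashed lines mark 2-fold; 25 of the 5199 genes lie outside the axes. The 11 factors past 2-fold at both times sit in the upper right corner, such as EEF1A1 at 2.93 and 2.41, and the lower left corner past both dashed lines holds EIF3F alone among the factors in the deposited values.

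The untreated libraries differed from each other nearly as much as they did from the treated ones. The median size of the log2 ratio, without regard to sign, over the 48 factors with all 4 ratios was 0.78 at 2 h and 0.86 at 4 h for treatment. It was 0.65 between 4U and 2U and 0.15 between 4T and 2T. From 2U to 4U, 10 of 49 factors were at least 2-fold higher (20.4%, against 21.6% of all genes) and 5 were at least 2-fold lower (10.2%, against 9.89%). These shares were near those of all genes. From 2T to 4T, 2 of 48 factors were at least 2-fold higher (4.17%, against 4.15% of all genes) and 1 was at least 2-fold lower (2.08%, against 5.19%). These comparisons share libraries with those of treatment. Of the 14 factors past the fold at 1 time only, 9 (64.3%) had untreated libraries at least 2-fold apart and 0 had treated libraries at least 2-fold apart. Over all 2152 such genes the shares were 45.9% and 12.1%, and being past the fold at 1 time only itself favours pairs that differ. Of the 12 past the fold at both times, 5 had untreated libraries at least 2-fold apart and 2 (EEF1E1 and EIF4E) had treated libraries so. The shares of all genes past the fold at both times were not worked out for this.

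**Figure D2:**
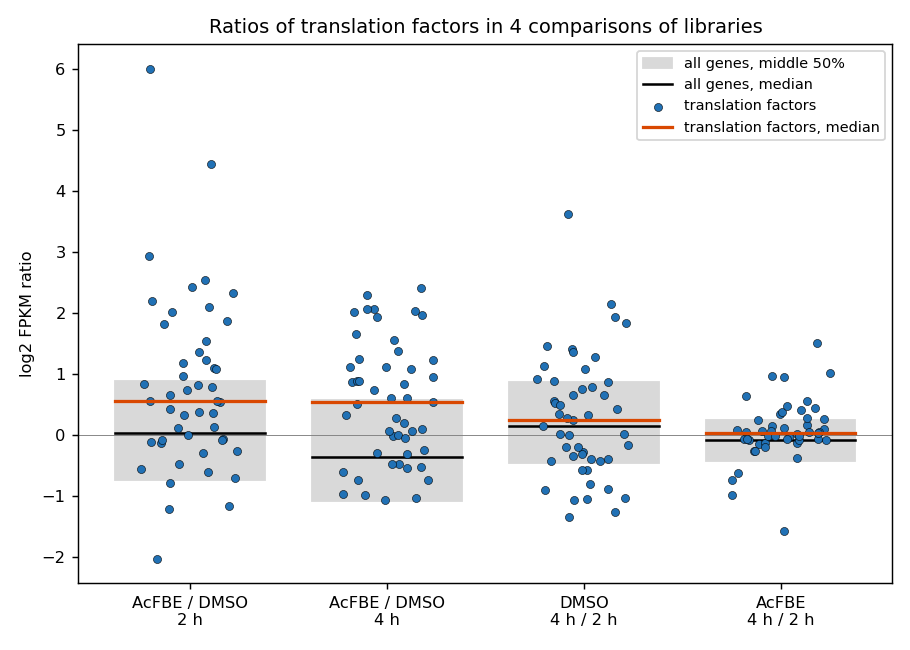
Log2 FPKM ratios of the translation factors (blue points, 1 per factor, spread sideways for visibility) in 4 comparisons of libraries. Grey boxes span the middle 50% of all genes, black lines mark the median of all genes and orange lines that of the factors, which lies at 0.56 and 0.54 for treatment at 2 and 4 h, and at 0.03 between the treated libraries, whose points are drawn closest together.

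The factors together made up 1.90% and 2.23% of all FPKM in the untreated libraries (2 and 4 h) and 2.42% and 2.44% in the treated ones. A few genes carried most of this sum: the 3 most abundant factors held 62.1% and 70.2% of it in the untreated libraries and 58.2% and 57.1% in the treated ones. EEF1G was the most abundant in all 4 libraries and EIF6 came next in all 4. The next place was held by EIF3K in both untreated libraries and by EEF1A1 in both treated ones. At the other end, 13 factors had a mean under 1 FPKM. Of these, EIF4E1B, EIF4E3 and the pseudogene EEF1DP3 were listed at 0 in all 4 libraries. The others were EEF1E1-MUTED, EEF2K, EIF1AY, EIF3A, EIF3CL, EIF4EBP2, EIF4EBP3, EIF4G3, EIF5A2 and EIF5B, and they enter no count of ratios. The level of a factor went down with the length of its transcript (Spearman rho from -0.46 to -0.37 across 53 to 56 factors above 0, which share a library). In 2U, the median of the 19 factors with a transcript under 2000 bases was 98.8 FPKM, whereas the median of the 13 with 4000 bases or more was 1.72 FPKM. The part of transcript length in these levels was not tested.

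The TOP tract is a feature of some of these mRNAs that the choice by symbol did not use. A gene was called TOP-like where any of its mRNA starts in RefSeq was a C followed by at least 4 bases that were each C or T. A gene with more listed starts can therefore be called more easily. Of the 62 factors, 48 had an entry among the start sequences, and 11 of these 48 were TOP-like (22.9%), against 1404 of all 27305 symbols with an entry (5.14%). Among genes with a mean of at least 1 FPKM the shares were 11 of 39 factors (28.2%) and 376 of 3845 genes (9.78%). The starts below are shown because their genes went different ways in the treated libraries. Where a gene had more than 1 listed start, the one with the longest tract is shown. Each run holds 15 bases before the start and the first 10 bases of the mRNA, read 5′ to 3′ on the coding strand, with the pyrimidine tract from the start, as far as shown, in capitals. Sequences are from RefSeq (table build GRCh38.p14), and positions are those of the same bases in GRCh37: EEF1A1 (minus strand) at chr6:74230746-74230770, EEF1B2 (plus) at chr2:207024604-207024628, EEF2 (minus) at chr19:3985452-3985476, EIF3F (plus) at chr11:8008869-8008893, EIF3M (plus) at chr11:32605362-32605386 and EIF3K (plus) at chr19:39109813-39109837.
EEF1A1: gtcgccgtgaacgttCTTTTTCgca
EEF1B2: ccggtctcttcgggtCCTTTTTCCT
EEF2: gttgacgtcagcgttCTCTTCCgcc
EIF3F: ttccgcttccgcctcCTTCTTTCTC
EIF3M: gcgcggcccagttccCTTTTCCggt
EIF3K: ttccgtttccaccacCTCTTCCTgt

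A pair of very abundant factors did not have such a start in RefSeq and are shown for contrast, EIF4A1 (plus strand) at chr17:7476128-7476152 and EEF1G (minus strand) at chr11:62341354-62341378. The listed start of EIF4A1 is a C, but an A interrupts the pyrimidines within the next 4 bases. The listed start of EEF1G is an A followed by CTTT, and EEF1G is nonetheless in the list of textbook TOP factors below.
EIF4A1: aggcgggcactccgccctagtttct
EEF1G: tctcccgggcggcttactttgcggc

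A TOP-like start did not go with one direction. Among the genes printed above with a tract, EEF1A1 and EIF3M were at least 2-fold higher in the treated library at both times, EIF3F was at least 2-fold lower at both, and EEF1B2 and EIF3K were within 2-fold. EEF2 was within 2-fold at both times, at a ratio of 0.997 at 2 h and 0.503 at 4 h. EIF4A1, without a tract, was at least 2-fold higher at both times. The median log2 ratio of the 11 TOP-like factors was 0.43 at 2 h and 0.87 at 4 h, and that of the 28 others with an entry and a ratio was 0.37 and 0.29. For all TOP-like genes of the table the medians were -0.09 and -0.26, and for all genes with an entry but no such start 0.04 and -0.39. In a list of 10 textbook TOP factors (EEF1A1, EEF1A2, EEF1B2, EEF1D, EEF1G, EEF2, EIF3E, EIF3F, EIF3H and EIF4B), 2 of 9 were at least 2-fold higher and 1 lower at 2 h, and 3 of 10 higher and 2 lower at 4 h. The background for such counts is the 22.6% of all genes higher and 18.7% lower at 2 h, and the 16.4% and 27.7% at 4 h, so that 2 of 9 is near the share of all genes. Of the textbook list, EEF1A2, EEF1D, EIF3E and EIF3H had no start entry, and EEF1G was not called TOP-like.

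The counts of each group of factors below are few, and are to be read beside the shares of all genes given above (22.6% higher and 18.7% lower at 2 h, 16.4% and 27.7% at 4 h). Of the eEF1 genes, 2 of 5 were at least 2-fold higher in the treated library at 2 h, and 2 of 6 higher and 1 lower at 4 h. EEF1A1, which delivers aminoacyl-tRNAs (chromosome 6, 74199031 to 74235310, minus strand, GRCh37), stood at 265 FPKM (2U), 2017 (2T), 391 (4U) and 2081 (4T). The treated libraries lay far above both untreated ones, at ratios of 7.60 at 2 h and 5.32 at 4 h, and within 1.03-fold of each other. EEF1A1P9, a processed pseudogene on chromosome 4, was listed at 31.1, 109, 25.7 and 98.0 FPKM in the order 2U, 2T, 4U, 4T, which is kept in the following. Since 34.1% of its 35-base stretches, the length of a read, also occur in EEF1A1 transcripts, reads of the pseudogene and of its parent gene may be exchanged. EEF1A2, the form used in muscle and neurons, was at 0.859, 1.25, 2.37 and 1.13 FPKM, and shared no 35-base stretch with EEF1A1. EEF1A1 exceeded it at least 165-fold in each library.

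The eEF1B subunits, which exchange the GDP on eEF1A for GTP, did not follow EEF1A1 in size. EEF1G, the gamma subunit on chromosome 11, was at 4614, 5789, 7269 and 6170 FPKM. Its treated libraries lay between the untreated ones, with ratios of 1.25 at 2 h and 0.849 at 4 h, the latter turning to slightly above 1 once each library is scaled to its median gene (log2 ratio of 0.06). EEF1B2, an exchange subunit on chromosome 2, was at 321, 563, 257 and 471 FPKM. Both treated libraries were above both untreated ones, at ratios of 1.75 and 1.83, under 2-fold in the deposited values. EEF1D, the other exchange subunit, was at 885 FPKM in 2U but listed at 0 in 2T, so it has no ratio at 2 h. At 4 h the untreated library was at 596 FPKM and the treated one at 410, 1.45-fold lower. EEF1G thus stood at 17.4 and 18.6 times EEF1A1 in 2U and 4U, but at 2.87 and 2.96 times in 2T and 4T.

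EEF1E1, named with this family but known as a scaffold protein of the aminoacyl-tRNA synthetase complex, had the largest ratio of all factors at 2 h, with levels of 0.472, 30.3, 2.09 and 10.2 FPKM. Both treated libraries were above both untreated ones, but they differed 2.98-fold from each other and the untreated ones 4.42-fold. The ratio of 64.1 at 2 h rests on a level under 1 FPKM in 2U, and was 4.88 at 4 h. The read-through transcript EEF1E1-MUTED, which overlaps it, was at most 0.210 FPKM. EEF2, the translocase on chromosome 19, was at 29.4, 29.3, 55.5 and 27.9 FPKM. 4U stood above the other libraries, which were alike. EEF1A1 was 9.02 and 7.06 times EEF2 in the untreated libraries and 68.7 and 74.7 times in the treated ones. EEF2K, the kinase that inhibits eEF2, was at most 0.343 FPKM.

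**Figure D3:**
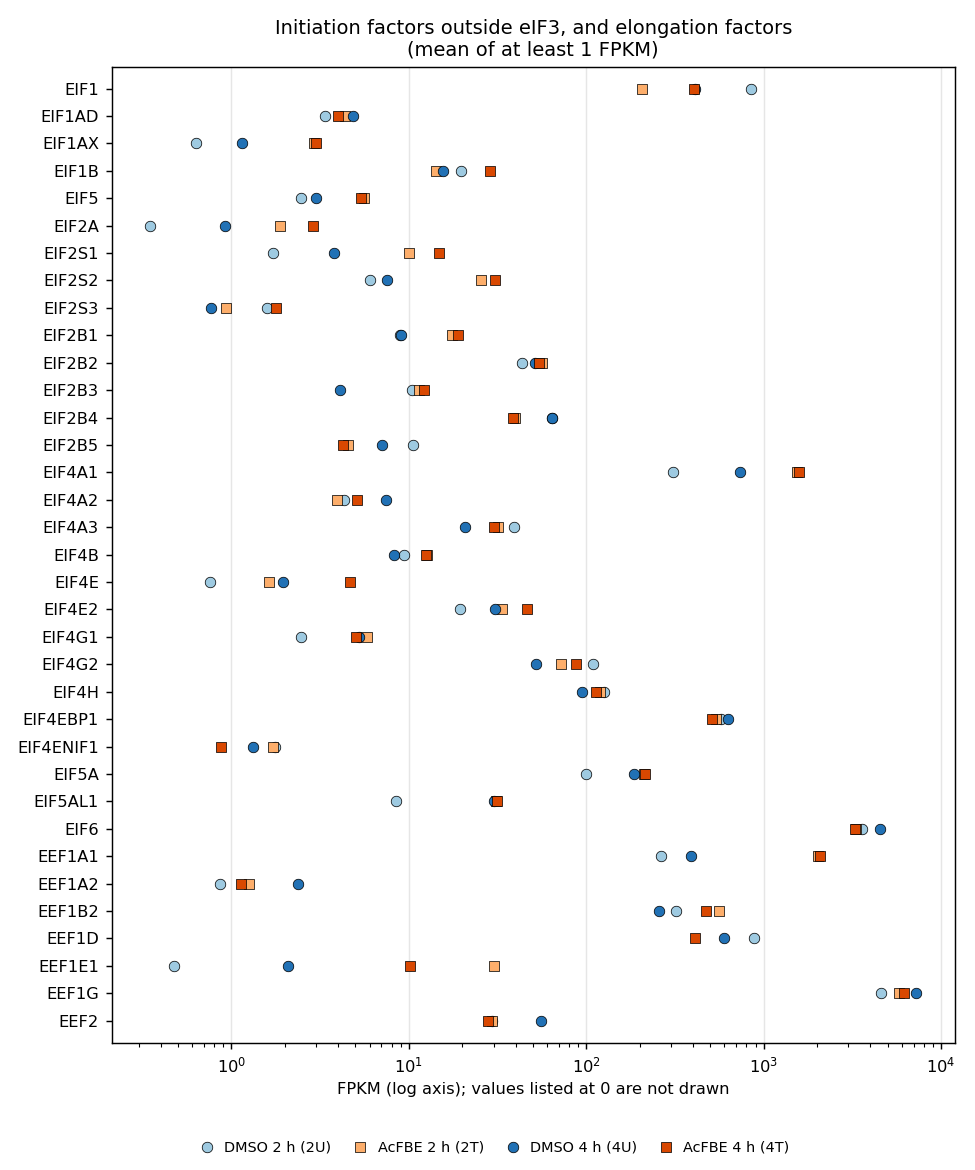
FPKM (log axis) of the initiation factors outside eIF3 and of the elongation factors with a mean of at least 1 FPKM in the 4 libraries (circles, DMSO; squares, AcFBE; pale, 2 h; dark, 4 h; pseudogenes are left out). The squares of EEF1A1, EIF4A1, EIF2S1 and EIF2S2 lie to the right of their circles, and those of EIF2B4 and EIF6 to the left; the squares of EEF2 fall on its circle for 2 h, and EEF1D has no square for 2 h because it is listed at 0 there.

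Most factors that deliver the initiator tRNA were higher in the treated libraries. All 4 with a ratio were at least 2-fold higher in the treated library at 4 h, and 3 of 4 at 2 h, and their summed FPKM was 3.97 and 3.83 times that of the untreated library. EIF2S1, the alpha subunit of eIF2 that stress kinases phosphorylate (chromosome 14, 67827045 to 67853233, plus strand), was at 1.72, 10.0, 3.77 and 14.7 FPKM, with ratios of 5.83 and 3.89. EIF2S2, the beta subunit (chromosome 20, 32676115 to 32700049, minus strand), was at 6.02, 25.6, 7.57 and 30.6 FPKM, with ratios of 4.25 and 4.05. For both, the lower of the treated libraries was above the higher of the untreated ones by more than 2-fold. EIF2A, a separate protein that can also bind initiator tRNA, was at 0.347, 1.87, 0.919 and 2.88 FPKM, and EIF2S3, the GTP-binding gamma subunit, at 1.59, 0.926, 0.771 and 1.79 FPKM. EIF2S3 did not share the pattern of its partners: it was lower in 2T than in 2U, and its treated libraries overlapped the untreated ones. EIF2D, another tRNA-binding factor, listed as LGTN and therefore not among the 62, was at 3.66, 1.59, 4.67 and 2.44 FPKM and lower in both treated libraries.

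The eIF2B complex, which recharges eIF2 with GTP, had nearly the same sum in each pair of libraries: the 5 subunits added up to 0.940 and 0.943 of the untreated library. The subunits differed in direction, with 1 of 5 at least 2-fold lower at 2 h and 2 of 5 higher at 4 h. EIF2B4 was at 64.2, 39.6, 64.3 and 38.8 FPKM, so that both pairs of the same treatment were nearly equal and the treated pair was lower by 1.62-fold and 1.66-fold. EIF2B5, the catalytic subunit, was at 10.5, 4.51, 7.04 and 4.24 FPKM, 2.34-fold lower at 2 h and 1.66-fold lower at 4 h. In the opposite direction, EIF2B1 was at 8.95, 17.5, 8.99 and 19.0 FPKM, with ratios of 1.96 and 2.11. EIF2B2 was at 43.3, 56.2, 51.1 and 53.8 FPKM. EIF2B3 was at 10.4, 11.4, 4.11 and 12.1 FPKM, and its ratio of 2.93 at 4 h goes with a low value in 4U.

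Of the factors that select the start codon, 2 of 5 were at least 2-fold higher and 1 lower at 2 h, and 1 was higher at 4 h. EIF1, which guards against wrong start codons (chromosome 17, 39845137 to 39848920, plus strand), was at 846, 207, 409 and 406 FPKM. It was 4.09-fold lower in the treated library at 2 h, the largest step down among factors with a ratio, and within 1.01-fold at 4 h. The untreated libraries themselves differed 2.07-fold. Its paralogue EIF1B was at 19.8, 14.2, 15.6 and 28.7 FPKM. EIF1AX, which works with EIF1 during scanning, was at 0.631, 2.91, 1.15 and 2.98 FPKM, with ratios of 4.61 and 2.59. EIF5, the GTPase activator of eIF2, was at 2.47, 5.60, 2.99 and 5.35 FPKM, with ratios of 2.26 and 1.79. For EIF1AX and EIF5 the treated libraries were nearly equal and lay above both untreated ones. EIF1AD, which carries an eIF1A-like domain, was between 3.38 and 4.87 FPKM.

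The 13 eIF3 subunits (apart from the copy EIF3CL) were measured at very unlike levels. EIF3K was the highest in all 4 libraries, and the median of the 13 stood at 98.8 FPKM in 2U, 167 in 2T (with EIF3A, listed at 0 there, counted as 0), 88.7 in 4U and 200 in 4T. The median was thus higher in both treated libraries, as was the sum of all eIF3 genes, at 1.21 and 1.29 times the untreated library. At each time 4 of 12 subunits with a ratio were at least 2-fold higher and 1 was lower, but these were different subunits in part. EIF3E and EIF3M were higher at both times, EIF3G and EIF3J at 2 h, and EIF3H and EIF3L at 4 h.

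EIF3E, a PCI-domain subunit encoded on chromosome 8, was at 22.6, 91.1, 30.3 and 124 FPKM, with ratios of 4.03 and 4.10. EIF3M, its partner in the PCI-domain core (chromosome 11, 32605344 to 32627810, plus strand), was at 57.4, 167, 50.1 and 211 FPKM, with ratios of 2.91 and 4.21. In both genes the untreated libraries lay close together and well below the treated ones. EIF3F, a subunit with an MPN domain (chromosome 11, 7991798 to 8023409, plus strand), showed the mirror image at 570, 255, 436 and 212 FPKM. It was 2.23-fold lower at 2 h and 2.06-fold lower at 4 h, and the value at 4 h passes 2-fold only narrowly and no longer does so once each library is scaled to its median gene. EIF3H, the other MPN subunit, went the other way at 297, 494, 123 and 516 FPKM. Its ratios were 1.67 and 4.18, and the larger ratio goes with the low value in 4U.

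The remaining subunits showed smaller or less even differences. EIF3D, which can bind the cap of some mRNAs, was at 98.8, 156, 88.7 and 172 FPKM. EIF3L was at 577, 846, 442 and 951 FPKM. EIF3I was at 175, 259, 246 and 308 FPKM. In all 3 genes both treated libraries were above both untreated ones, mostly by less than 2-fold. EIF3K was the most even of the abundant factors, at 1455, 1579, 1468 and 1566 FPKM, within 1.09-fold over all 4 libraries. EIF3G, which binds the scanning mRNA, was at 102, 261, 390 and 200 FPKM, so that its treated libraries fell between the untreated ones and its ratio was 2.56 at 2 h and 0.514 at 4 h. The scaffold subunits behaved differently from EIF3E and EIF3M: EIF3B was at 69.8, 47.6, 39.8 and 28.8 FPKM, with each treated library below the untreated one of its time. EIF3C was at 32.4, 27.0, 17.6 and 17.6 FPKM. Its copy EIF3CL shares 98.1% of its 35-base stretches with EIF3C and was at most 1.31 FPKM, so how reads were split between the copies bears on both values. EIF3J, a loosely bound subunit, was at 0.257, 5.57, 3.17 and 5.86 FPKM, and its ratio of 21.7 at 2 h goes with a 2U value 12.3 times below 4U. EIF3A, the largest subunit, was at 1.91 FPKM in 2U, listed at 0 in 2T, and at 0.914 and 1.18 in 4U and 4T. The pseudogene EIF3IP1 was at 23.4, 41.7, 39.3 and 55.5 FPKM and shares 2.57% of its stretches with EIF3I.

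**Figure D4:**
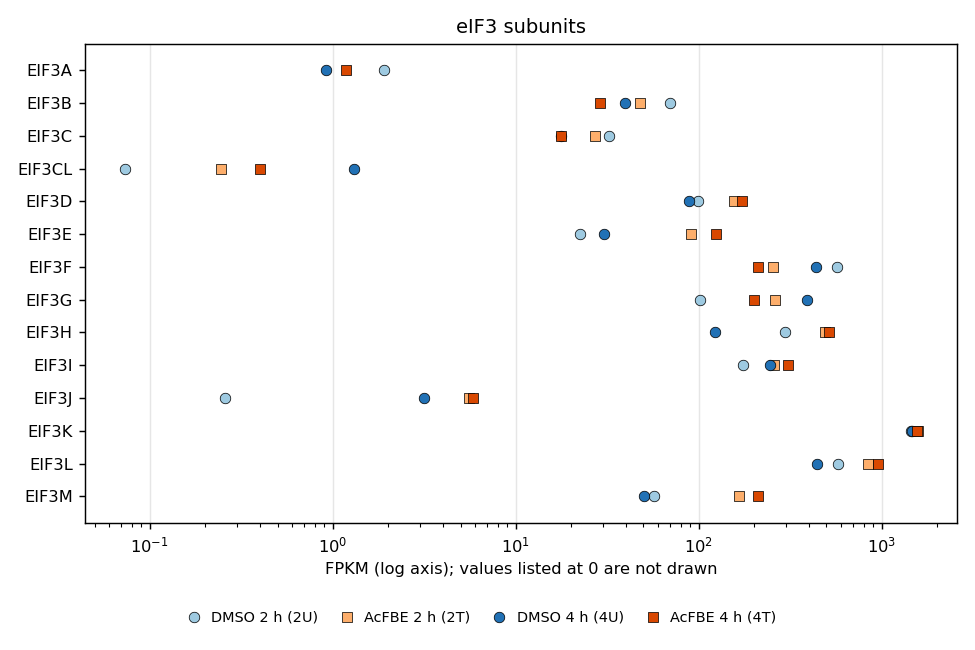
FPKM (log axis) of the eIF3 subunits in the 4 libraries (circles, DMSO; squares, AcFBE; pale, 2 h; dark, 4 h; values listed at 0 are not drawn). The squares of EIF3E and EIF3M lie to the right of their circles and those of EIF3F to the left, while the 4 points of EIF3K fall on one another between 1455 and 1579 FPKM.

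The cap-binding complex eIF4F and its cofactors summed to 2.94 times the untreated library at 2 h and 1.98 times at 4 h, and EIF4A1 carried most of this. Of 9 such factors with a ratio, 3 were at least 2-fold higher at 2 h and 2 at 4 h, and 0 were lower. EIF4A1, the helicase that unwinds mRNA leaders (chromosome 17, 7476142 to 7482324, plus strand), was at 307, 1532, 738 and 1590 FPKM, with ratios of 4.99 and 2.15. Its treated libraries were within 1.04-fold of each other and its untreated ones 2.40-fold apart. Its paralogue EIF4A2 was at 4.29, 3.93, 7.39 and 5.11 FPKM and did not share the difference. EIF4A3, a helicase of the exon junction complex, was at 38.9, 31.9, 20.8 and 30.3 FPKM. EIF4E, which binds the cap, was at 0.758, 1.62, 1.95 and 4.63 FPKM. It was at least 2-fold higher in the treated library at both times (2.14 and 2.38), but 2T lay below 4U, and both the untreated and the treated library were higher at 4 h than at 2 h.

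EIF4E2, a cap-binding homologue that represses translation, was the more abundant at 19.5, 33.7, 30.6 and 46.6 FPKM. The scaffold EIF4G1 was at 2.48, 5.81, 5.22 and 5.05 FPKM, where 2U stood alone below the others. EIF4G2, a scaffold that lacks the site for eIF4E, was at 109, 71.9, 52.0 and 87.0 FPKM. EIF4G3, a further scaffold, was at 0.108, 0.0496, 0.294 and 0.256 FPKM. The helicase cofactors differed little: EIF4B was at 9.40, 12.7, 8.20 and 12.5 FPKM, and EIF4H at 126, 119, 94.0 and 113 FPKM.

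EIF4EBP1, the repressor that holds eIF4E away from EIF4G1 when mTOR is inactive, was abundant and even, at 572, 541, 631 and 510 FPKM. It exceeded EIF4E 754-fold and 324-fold in 2U and 4U and 334-fold and 110-fold in 2T and 4T. The transcripts of EIF4EBP1 and EIF4E are 827 and 2427 bases long, and the part of length in these ratios was not tested. The related repressors were scarce, EIF4EBP2 at 0.415, 0.793, 1.09 and 0.747 FPKM and EIF4EBP3 at 0.488, 0.563, 0.272 and 0.318 FPKM. EIF4ENIF1, which carries eIF4E into the nucleus, was at 1.77, 1.71, 1.32 and 0.868 FPKM.

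EIF6, which keeps the large ribosomal subunit from joining too early (chromosome 20, 33866710 to 33872788, minus strand), was at 3585, 3296, 4526 and 3276 FPKM. Both treated libraries were below both untreated ones in the deposited values, by 1.09-fold and 1.38-fold within each time, but not after the scaling to the median gene. EIF5A, which helps the ribosome past stretches of proline, was at 99.9, 211, 185 and 213 FPKM. Here 2U stood apart and the other 3 libraries were alike, so its ratio was 2.11 at 2 h and 1.15 at 4 h. EIF5AL1, a copy that shares 15.6% of its 35-base stretches with EIF5A, had the same shape at 8.50, 30.9, 30.2 and 31.5 FPKM. The paralogue EIF5A2 was at 0.404, 0.224, 0.284 and 0.659 FPKM. EIF5B, which joins the subunits, was at most 0.880 FPKM.

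Genes that work beside these factors were listed by pathway, with the same background of 22.6% of all genes higher and 18.7% lower at 2 h and 16.4% and 27.7% at 4 h. Of 5 genes of termination and ribosome recycling with a ratio, 1 was at least 2-fold higher in the treated library at 2 h and 4 at 4 h. ETF1, the release factor that reads stop codons, was at 5.88, 15.0, 5.18 and 19.6 FPKM, with ratios of 2.55 and 3.78, and passed 2-fold at both times. Among poly(A)-binding proteins and partners, 1 of 3 was at least 2-fold higher at each time, PABPC1 at 2 h and PAIP2 at 4 h. PABPC1, which joins the mRNA tail to EIF4G1, was at 36.1, 164, 147 and 125 FPKM, with 2U standing apart as for EIF5A. Of the kinases of EIF2S1, EIF2AK1 was at 12.4, 13.0, 14.1 and 10.1 FPKM, EIF2AK4 was at most 0.699 FPKM, and EIF2AK2 and EIF2AK3 were listed at 0 in all 4 libraries. PPP1R15A, the phosphatase subunit that reverses this phosphorylation, was at 32.9, 7.68, 31.0 and 6.83 FPKM. Its level was lower in both treated libraries, at ratios of 0.234 and 0.220, while EIF2S1 itself was higher.

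In the list of mTOR and MNK control, 4 of 6 genes with a ratio were at least 2-fold higher at 2 h, and 0 were higher and 2 lower at 4 h. From 2U to 4U, 5 of the 6 were at least 2-fold higher, against 21.6% of all genes. The lowest library was 2U for MLST8, AKT1S1, RPS6KB2 and LARP1, with AKT1S1 and LARP1 under 1 FPKM there. It was not the lowest for MKNK2 (1.57, 1.60, 3.16 and 0.583 FPKM) or RHEB (7.98, 7.30, 4.71 and 8.83 FPKM). MLST8, a subunit of the mTOR complexes, was the highest of the list at 9.13, 28.4, 26.4 and 20.2 FPKM. Of the enzymes that modify eEF2 and eIF5A, 2 of 4 were at least 2-fold higher and 1 lower at 2 h, and 1 of 5 higher and 2 lower at 4 h. DPH2, of diphthamide synthesis on eEF2, was at 16.8, 7.40, 33.7 and 7.19 FPKM and at least 2-fold lower at both times. DPH1, of the same pathway, was listed at 0.000300 FPKM in 2U and at 5.31, 1.31 and 3.94 FPKM in the others. It was at least 2-fold higher at both times (3.00 at 4 h), but its ratio at 2 h rests on that very low value in 2U. DHPS, which starts the hypusine modification of eIF5A, was listed at 0 in both libraries of 2 h and was at 52.1 and 24.3 FPKM at 4 h. Of 8 mitochondrial translation factors, 3 had a ratio at 4 h, and 2 of them were at least 2-fold lower. TUFM, the mitochondrial counterpart of EEF1A1 and the highest of that list, was at 112, 121, 274 and 94.7 FPKM, with 4U standing above the other libraries, and thus did not follow EEF1A1.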

How the data were processed

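The authors sequenced poly(A) RNA of 4 SK-HEP-1 cultures on SOLiD 3 as 35-base reads. They aligned the reads to hg19 (GRCh37) and deposited 1 table of FPKM per gene and library. The submitters' processing notes name TopHat and Cufflinks, while the methods name Bowtie as the aligner; versions are not given in the sources used here. Cufflinks estimates FPKM and can list 0 where an estimate fails, and short reads shared by gene copies can be assigned to either copy. The 12 small RNA libraries of the series were not used here.

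The condition of each library is the one its label gives. Ratios are of plain FPKM (no pseudocount), for genes listed above 0 in the pair compared and with a mean of at least 1 FPKM over the 4 libraries. With 1 library per condition no test was run. The paper gives the mapped reads of each library, but reads per gene were not available, and the precision of a value cannot be given. Alternatives were a pseudocount of 1 FPKM, a minimum of 5 FPKM or none, a limit of 1.5-fold, scaling each library to the median of expressed genes, and, chosen after seeing the data, leaving out pseudogenes, copies and the read-through gene. All 62 symbols matched 1 gene each in GENCODE v44lift37, which gave positions and transcript lengths. Start sequences of 300 bases in RefSeq were placed in GRCh37 by an exact match. All factors may be named. All 4 values are given for those with a mean of at least 20 FPKM, those past 2-fold the same way at both times, paralogue pairs and those listed at 0 in 1 to 3 libraries with at least 1 FPKM elsewhere, and for others where they complete a complex. The genes and lists were chosen with earlier results of these data known. Calculations used Python 3.11.15 with numpy 2.4.6 and pandas 2.3.3, and figures matplotlib 3.10.9.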

Additional observations from a re-analysis of the deposited data

How the results depend on the processing

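Of the counts and medians of the factors, those leaving out pseudogenes, copies and the read-through gene (an alternative chosen after seeing the data) stayed within 1.5 times. With the settings used above, 17 factors were at least 2-fold higher at 2 h and 16 at 4 h. Without pseudogenes, copies and the read-through gene, 15 were at each time. With a minimum of 5 FPKM in mean, which tests fewer genes, 11 were higher at 2 h and 1 was lower at 4 h. With a pseudocount of 1 FPKM, 1 was lower at 4 h. Without a minimum, 5 were lower at 2 h in place of 3, and the median log2 ratio at 4 h was 0.34 in place of 0.54. At 1.5-fold, 6 were lower at 2 h and 7 at 4 h, and 18 were higher and 3 lower at both times in place of 11 and 1. The shares of all genes under these other limits and filters were not worked out, so these counts have no background beside them. Scaling each library to its median gene moved the median log2 ratio of all genes at 4 h from -0.35 to -0.06, and that between 4U and 2U from 0.15 to -0.01. Under it the median of the factors at 4 h was 0.84, 22 factors were higher at 4 h (44.9%, against 22.3% of all genes under the same scaling), 0 were lower at 4 h and 0 were lower at both times, so that EIF3F no longer passed 2-fold at 4 h. The log2 ratio at 4 h then turned from -0.01 to 0.28 for EIF1 and from -0.24 to 0.06 for EEF1G. The log2 ratio of EEF1E1 at 2 h was 4.41 with the pseudocount, below its value without. No library could be left out, and no paired analysis was possible because each condition has 1 library and no test was run. FPKM give no counts per gene, so counting error limits values under 1 FPKM by an amount that was not worked out.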
